A study of Rattus norvegicus with 10 samples.

Results

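The cytosolic ribosomal protein genes were followed in total RNA of the right brain of 10 rats, all male, of the Wistar strain and 7 weeks old. The 5 control rats inhaled vapor from distilled water and the other 5 vapor from DMHF, a methylated hydroxyfuranone known as a food aroma. Inhalation from 5 mL of liquid lasted 5 min, preceded the dark period, and was followed by 10 min of waiting. The members were the genes whose array symbol starts with Rpl or Rps and a digit, or is Rplp0, Rplp1, Rplp2 or Rpsa, without the Rps6 kinases, and only probe sets annotated to a single gene were used. This gave 50 genes on 57 probe sets, out of 14217 genes with a single-gene probe set, and the probe set with the highest mean level stood for each gene. Of the 50, 34 belong by symbol to the large subunit and 16 to the small subunit. By the RefSeq gene table, Rpl37-ps2 and Rps4x-ps1 are transcribed pseudogenes, the identifiers of Rpl37a and Rps9 were not matched, and the other 46 are protein coding.

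Cytosolic ribosomes read messenger RNA and join amino acids in every cell. Each ribosome holds one copy of nearly every ribosomal protein, and the transcripts of these genes are among the most abundant of any tissue, the brain included. Many begin with a terminal oligopyrimidine tract, a C followed by a run of C and T at the start of the transcript, through which the kinase complex mTORC1 and the RNA-binding protein Larp1 set their translation.

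The start of the member genes is shown here because that tract is the feature by which the family is best known. RefSeq promoters of build GRCr8 were matched by gene identifier for 41 of the 50 members. A tract was counted where a C followed by at least 4 further pyrimidines (a run of 5 or more) began within 5 bases of the annotated start. In each line below the first 10 bases precede the annotated start, the next 20 follow it, letters run 5′ to 3′ on the strand of the gene, and capitals mark the tract.
Rpl19, chr10:83519054-83519083, plus strand: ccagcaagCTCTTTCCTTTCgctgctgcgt
Rplp0, chr12:46718371-46718400, minus strand: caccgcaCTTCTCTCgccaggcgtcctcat
Rpl22, chr5:168117951-168117980, plus strand: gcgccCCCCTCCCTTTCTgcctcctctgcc
Rps3a, chr2:173827023-173827052, minus strand: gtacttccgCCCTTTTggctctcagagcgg
Rpl39, chrX:121195877-121195906, minus strand: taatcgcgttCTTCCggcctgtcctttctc
Rps27l, chr8:76443648-76443677, plus strand: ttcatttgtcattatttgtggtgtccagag
Rps6, chr5:106420521-106420550, minus strand: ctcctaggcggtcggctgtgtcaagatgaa

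The first 5 of these windows hold a tract and the windows of Rps27l and Rps6 do not. For Rpl22 the capitals begin at the search limit of 5 bases before the start, inside a run of pyrimidines that begins earlier. A tract was found for 20 of the 41 members (48.8%), against 17.1% of 11700 genes of the array and 17.0% of all 27457 genes of the promoter table. The absence of capitals for Rps6 says only that these letters do not lie at the annotated start. In the 300 bases from 250 before to 50 after the start, the letters CCGGAAG, on either strand, were present for 10 of 41 members (24.4%) and 15.1% of the array's genes. The letters AAGATGGC were present, on either strand, for 4 of 41 members (9.76%) and 4.72% of the array's genes.

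The array table gives processed values on a log2 scale, and their differences between rats are minute: the SD of a gene over the 10 arrays had a median of 1.82 millionths of a log2 unit over all genes. Values of single rats are therefore given in millionths of a log2 unit from the control mean of the same probe set. A second unit for differences is the SD within groups, pooled, of the probe set concerned. Neither unit yields a fold change of RNA, and sizes in millionths cannot be compared between genes. The array medians differed by at most 15.2 millionths between rats, and 0 pairs of arrays were identical. Neuron markers were at 9.06 to 13.34 and oligodendrocyte markers at 10.14 to 13.79 on the deposited scale, while 3 muscle markers lay between 5.81 and 7.60.

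The members fell into a bright and a dim part by level. The median level of the 50 was 11.77, against 7.89 over all genes, and 34 members lay at 11 or above. A split was placed at 9.5 after the levels were seen, between Rpl14 at 9.74, the lowest of 38 bright members, and Rpl39 at 9.07, the highest of 12 dim members. Rps29, a small-subunit protein, was the brightest at 12.89, followed by the large-subunit proteins Rpl26 at 12.68 and Rpl19 at 12.59. Levels of different probe sets also depend on the probes, so this order is not an order of RNA amounts. The dimmest were Rps4x-ps1 at 5.62, Rpl3l, the form of Rpl3 known from striated muscle, at 6.31, and Rpl39l1, a paralog of Rpl39, at 6.34.

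**Figure D1:**
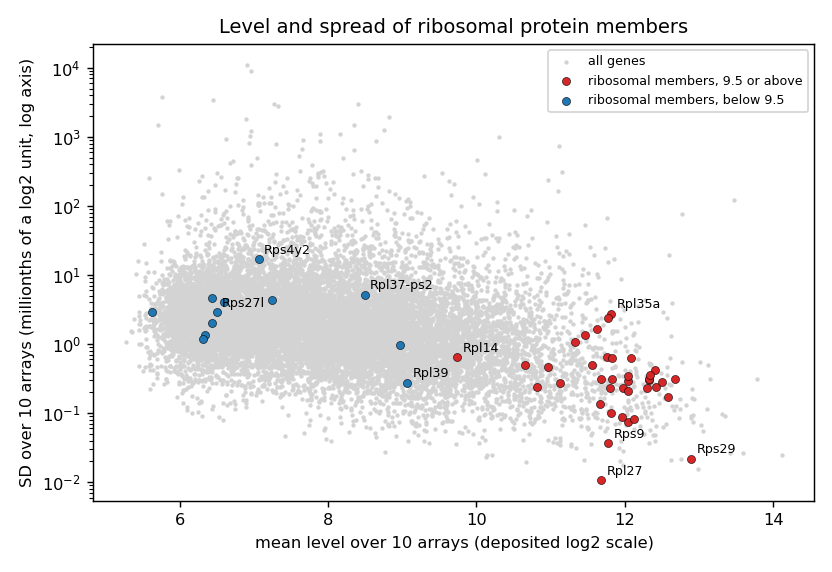
Mean level (deposited log2 scale) against the SD over the 10 arrays (millionths of a log2 unit, log axis) for all 14217 genes in grey and the 50 members, red at 9.5 or above and blue below. The red points gather at the high-level, low-spread end, with Rpl27 lowest at an SD of 0.0107, and Rps4y2 is the blue point of largest SD at 17.0.

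For 3 of the dim members, other probe sets were bright. Rpl28, Rpl30 and Rps13 are core proteins of the ribosome whose single-gene probe sets stood at 6.43, 6.43 and 6.60. Probe sets annotated to several genes, with Rpl28, Rpl30 or Rps13 among them, stood at 11.53 to 12.09, but such probe sets cannot be assigned to a gene and were not members. There were 36 probe sets of this kind with a ribosomal symbol, 33 of them at 9.5 or above. Rat chromosomes carry many near-identical copies of ribosomal protein genes, so a bright probe set named for a single member may read its copies too.

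The SD over 10 arrays, which describes the deposited table and not how variable one gene's RNA is beside another's, had a median of 0.351 millionths for the 50 members and 0.305 for the bright 38, against 0.331 for the 531 genes at 11 or above. The members at 11 or above had a median SD of 0.299, close to that of bright genes in general. Rpl27 had the smallest SD of the family, 0.0107, then Rps29 with 0.0218 and Rps9 with 0.0363. The table gives values above 10 to 8 decimals, a step of 0.01 millionths, and Rpl27 took only 4 distinct values over the 10 rats and Rps29 only 5. For these genes the spread is close to the rounding of the table. The widest spreads were those of Rps4y2, a paralog of Rps4x, at 17.0 millionths, Rpl37-ps2 at 5.16 and Rpl30 at 4.71, all dim.

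The main question of the design was whether any of these transcripts differed 10 min after DMHF was inhaled. No member passed the test for a difference between DMHF and control rats: limma (adjusted p over all 31042 probe sets, threshold 0.05) called 0 of 50 members, where it called 0% of all probe sets, and the smallest adjusted p among members was 0.800. At an unadjusted limma p under 0.05, 1 member was listed, Rps27l, which is 2% of the members, where 4.8% of all genes were listed in either direction and 1.83% as lower. Means were higher in DMHF for 27 members (54%) and lower for 23, where 53.0% of all genes were higher. The members' split turned to 16 higher when each array was shifted to a common median and to 21 higher with array weights. In the large subunit 16 of 34 were higher and in the small subunit 11 of 16. Of the 36 probe sets annotated to several genes with a ribosomal symbol, 14 were higher and 22 lower (median -0.257 within-group SD). The median difference was 0.0193 within-group SD over the members and 0.0477 over all genes, and with each array left out in turn the members' median ran from -0.348 (without control replicate 3) to 0.162, so its sign is not settled. Markers of choroid plexus had higher means in DMHF for 6 of 6 genes (median 0.774 SD) and those of ependyma for 4 of 4 (1.22 SD). Pituitary markers were higher for 5 of 6 (0.935 SD), with the 5 DMHF rats above all controls for Cga, whose level was 6.45. Astrocyte markers were higher for 4 of 6 (0.604 SD), from -0.848 SD for Slc1a2 to 1.56 SD for Gfap. Neuron markers were higher for 4 of 7 (0.0171 SD), microglia markers for 3 of 6 (0.0554), oligodendrocyte markers for 2 of 5 (-0.215) and endothelial markers for 2 of 6 (-0.355). Erythrocyte markers were higher for 1 of 2 (0.323 SD), liver markers for 1 of 3 (-0.505) and muscle markers for 2 of 3 (0.240). None of these markers was called by limma, and their part in the members' differences was not tested. For 0 of 50 members did the values of the 5 DMHF rats lie wholly outside those of the 5 control rats, where 0.893% of all genes did so.

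**Figure D2:**
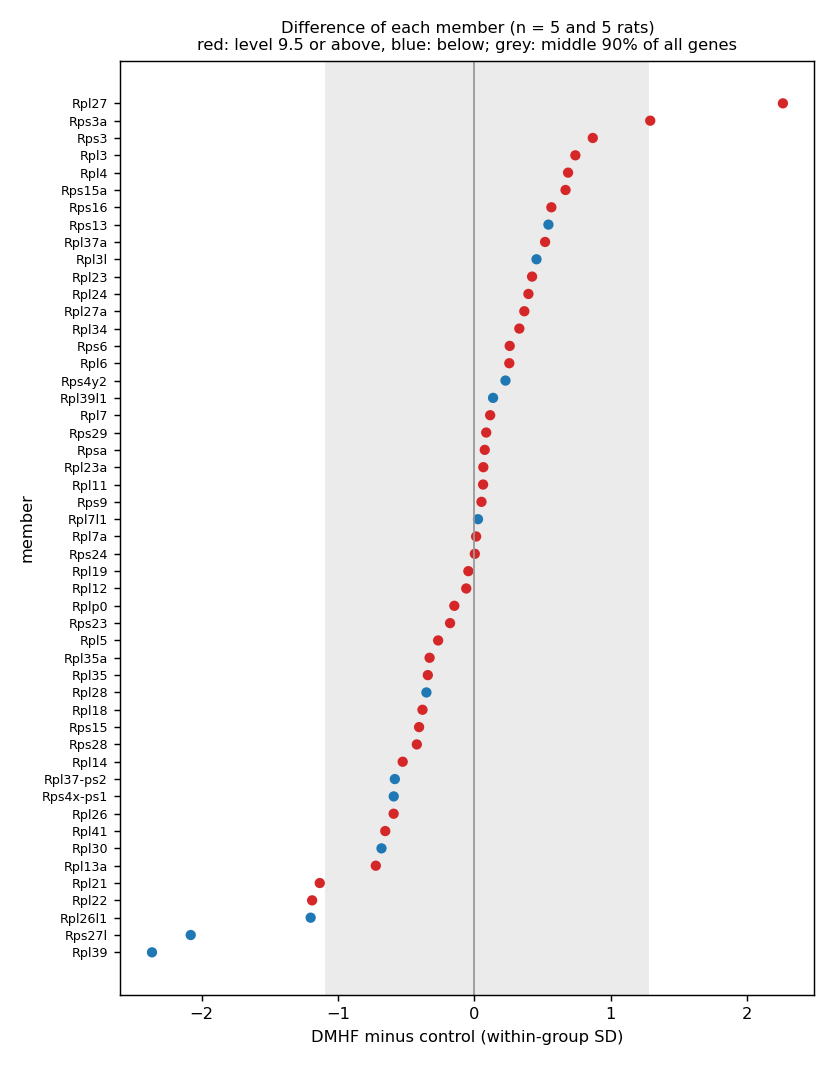
DMHF minus control for each of the 50 members in units of the within-group SD (5 and 5 rats), red for levels of 9.5 or above and blue below, with the middle 90% of all genes shaded. Of the 50, 43 lie within the shaded band, Rpl27 at 2.26 and Rps3a at 1.29 lie above it, and Rps27l at -2.08 and Rpl39 at -2.37 lie furthest below it.

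Differences beyond 1 within-group SD were seen for 7 members (14%), against 15.5% of all genes, and differences beyond 2 for 3 members (6%), against 1.46%. These 3 were Rpl39, Rpl27 and Rps27l, and for each of them 4 of 5 rats on DMHF lay outside the control range.

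Rpl39 is a very small protein that lines the exit tunnel of the large subunit. Its control rats stood at 0.045, -0.036, -0.001, -0.152 and 0.144 millionths and its DMHF rats at -0.070, -0.532, -0.383, -0.677 and -0.427, replicates 1 to 5 in order. All but DMHF replicate 1 lay below every control rat. The difference was -0.418 millionths (SE 0.238, n = 5 and 5), or -2.37 SD, and the limma adjusted p was 0.947. The moderated SE was larger than the 0.112 that the spread of Rpl39 alone gives, and without moderation the p from lmFit was 0.00571, adjusted to 0.792 over all probe sets. The difference stayed between -0.505 and -0.353 with each array left out in turn.

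Rps27l is a paralog of the small-subunit protein Rps27 and is known as a target of p53. Its control rats stood at 1.39, 2.704, -3.16, -1.69 and 0.747 millionths and its DMHF rats at -4.54, -5.58, -5.24, -1.89 and -3.43. DMHF replicate 4 lay within the control range and the other 4 below it. The difference was -4.14 millionths (SE 1.21), or -2.08 SD, with an unadjusted limma p of 0.00801 and an adjusted p of 0.800. Its level of 6.50 lay among the lowest 16.5% of genes, and whether so dim a probe set reads Rps27l was not tested.

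Rpl27, a protein of the large subunit, differed by 0.016 millionths, or 2.26 SD, with a limma adjusted p of 0.9996. Its control rats took the values 0.004, 0.004, -0.006, 0.004 and -0.006 and its DMHF rats 0.014, 0.004, 0.014, 0.024 and 0.024. All 10 values thus lay within 3 rounding steps, and with a common array median the difference was -0.0302. Without moderation lmFit listed 3 of 50 members (6%) at an unadjusted p under 0.05, namely Rpl39, Rpl27 and Rps27l, against 5.21% of all genes, and called 0 after adjustment.

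**Figure D3:**
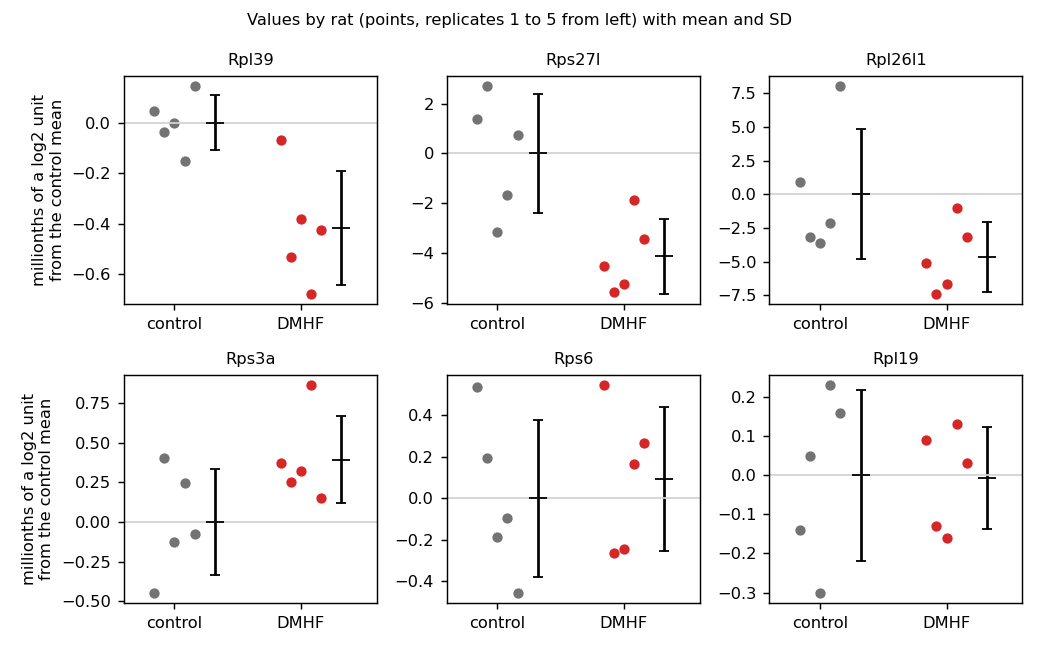
Values of 6 members in each rat (points, replicates 1 to 5 from left, grey control and red DMHF) in millionths of a log2 unit from the control mean, with group mean and SD. Rpl39 and Rps27l show 4 of 5 DMHF rats below all controls, while the groups of Rps6 and Rpl19 overlap over most of their range.

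Among the other proteins of the small subunit, Rps3a and Rps3 had the smallest p values in the direction of higher means. Rps3a stood at -0.446, 0.404, -0.126, 0.244 and -0.076 millionths in control rats and at 0.374, 0.254, 0.324, 0.864 and 0.154 in DMHF rats. The groups overlapped, with DMHF replicate 4 alone above every control. The difference was 0.394 (SE 0.281), or 1.29 SD, at a limma adjusted p of 0.973. Rps3, which sits where messenger RNA enters the ribosome, differed by 0.410 (SE 0.355; limma adjusted p = 0.995). Rps6, the protein that S6 kinases phosphorylate when mTORC1 is active, stood at 0.536, 0.196, -0.184, -0.094 and -0.454 in control rats and at 0.546, -0.264, -0.244, 0.166 and 0.266 in DMHF rats, a difference of 0.094 (SE 0.305). Rpsa, also known as a laminin receptor, differed by 0.022 (SE 0.275) on its brightest probe set and by -0.022 and 0.438 on its other two.

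In the large subunit, Rplp0, the base of the stalk that recruits elongation factors, stood at -0.408, 0.042, -1.42, 1.63 and 0.152 millionths in control rats and at -0.198, -1.26, -0.798, 1.80 and -0.388 in DMHF rats, a difference of -0.168 (SE 0.718). Each group spanned over 3 millionths, many times that difference. Rpl5 and Rpl11, which can bind and inhibit Mdm2 when ribosome assembly is disturbed, differed by -0.176 (SE 0.451) and 0.044 (SE 0.467). Rpl22, an RNA-binding protein at the surface of the subunit, differed by -0.252 (SE 0.248), or -1.19 SD, with 2 of 5 DMHF rats below every control. Rpl3, which lies at the peptidyl transferase centre, differed by 0.206 (SE 0.271), and Rpl41, the smallest ribosomal protein, by -0.204 (SE 0.284). Rpl13a and Rpl19, often used as reference genes, differed by -0.220 (SE 0.281) and -0.008 (SE 0.239). None of these passed the test, and all had a limma adjusted p of 0.9996.

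The paralogs and the remaining dim members did not pass the test either. Rpl26l1, a paralog of Rpl26, stood at 0.919, -3.19, -3.64, -2.11 and 8.02 in control rats and at -5.10, -7.36, -6.64, -0.999 and -3.18 in DMHF rats. The difference of -4.65 (SE 2.34; limma adjusted p = 0.931) rests in part on control replicate 5, and was -2.65 without it. Rpl30 differed by -3.18 (SE 2.81), Rps13 by 2.26 (SE 2.51), Rpl37-ps2 by -3.04 (SE 3.14) and Rps4x-ps1 by -1.71 (SE 1.75). Rps4y2 differed by 4.07 (SE 10.8), Rpl3l by 0.551 (SE 0.758), Rpl39l1 by 0.195 (SE 0.885) and Rpl7l1, a paralog of Rpl7, by 0.027 (SE 0.662).

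A further probe set existed for 6 members. Rps24, a small-subunit protein made in several splice forms, differed by 0.004 millionths on its bright probe set (level 11.47) and by -5.49 (SE 1.52; -2.20 SD; limma adjusted p = 0.776) on a dim probe set at 6.93. The dim probe sets of Rpl14 and Rpl7, at 6.06 and 7.34, differed by 1.05 and -1.56, with the sign opposite to the bright ones at -0.342 and 0.036. Those of Rpl3 had the same sign, 0.206 and 0.257.

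What the bright members did share was their order among rats, irrespective of treatment. In control replicate 3, 35 of 38 bright members lay below their own mean over the 10 rats, and the median member stood at -1.35 within-group SD. In DMHF replicates 3 and 2, 31 and 28 of 38 lay below, with medians of -0.764 and -0.699. The bright members tended to lie above their mean in control replicate 4 (31 of 38, median 0.588), DMHF replicate 4 (30 of 38, 0.567), DMHF replicate 1 (26 of 38, 0.634) and control replicate 2 (27 of 38, 0.361). Control replicates 1 and 5 and DMHF replicate 5 were near the middle, with medians of 0.181, 0.117 and 0.173. Low rats were thus found in both groups. In the same rats the median over all genes was -0.120 in control replicate 3, -0.121 in DMHF replicate 3 and -0.0182 in DMHF replicate 2, and over genes at 11 or above -0.345, -0.0951 and -0.148. In bulk tissue, fewer cells of a type, less RNA per cell and the processing of an array cannot be told apart in such a value. With quantile normalization no bright member varied between rats, so that setting shows no order among them.

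**Figure D4:**
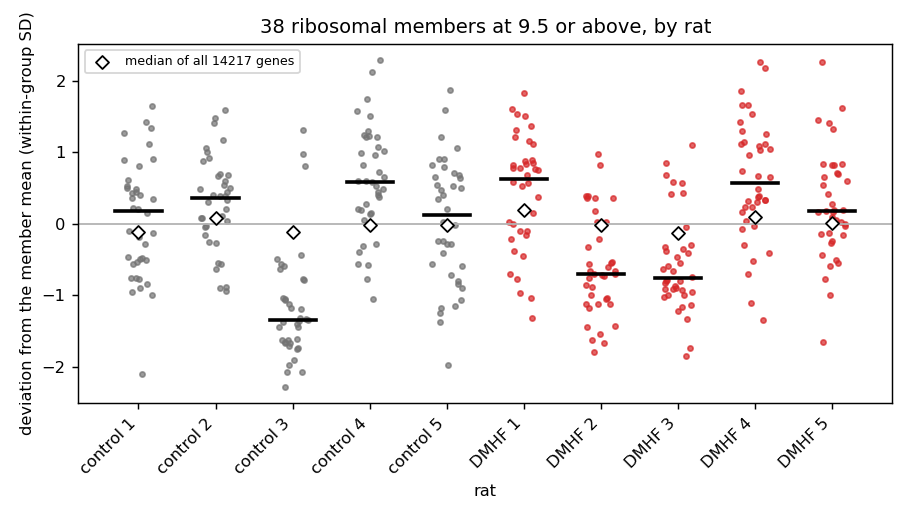
Deviation of each of the 38 bright members from its own mean over the 10 rats, in within-group SD, with the median as a black line and the median of all 14217 genes as a diamond. Control replicate 3 (median -1.35) and DMHF replicates 2 and 3 (-0.699 and -0.764) lie low, and the diamonds stay near 0.

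Control replicate 3 was the lowest of its group for 30 of 38 bright members and the lowest of all 10 rats for 22. Rps24 shows the pattern on its own, with control rats at 1.17, 0.866, -2.72, 0.196 and 0.496 millionths and DMHF rats at -0.004, -1.25, -1.30, 1.39 and 1.20. Rpl7, a protein of the large subunit, stood at 0.128, 0.168, -0.392, 0.168 and -0.072 in control rats and at 0.298, -0.432, -0.292, 0.368 and 0.238 in DMHF rats. Replicate 3 of the controls and replicates 2 and 3 of DMHF were the lowest of these rats for each gene. Rpl7 also followed the median of the other bright members most closely (r = 0.909 over 10 rats after removing group means, a description), before Rpl35 (0.904), Rps28 (0.891) and Rpl18 (0.889). Of the 38, 24 had such an r above 0.5, and Rpl13a (-0.096) and Rpl14 (-0.226) had one below 0. Control replicate 3 lay above the mean for Rpl13a, Rpl14 and Rpl24 only.

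Over the 703 pairs of bright members, the within-group correlation over the 10 rats had a median of 0.398 and was above 0 for 86.3% of pairs. The 531 genes at 11 or above had a median of 0.0261 over their pairs, and 0.0167 with the members left out. Positive medians were also found in the lists most like the members. Pairs of the 73 mitochondrial ribosomal proteins had a median of 0.174, with 66.2% above 0. Pairs of the 33 bright probe sets annotated to several genes with a ribosomal symbol had a median of 0.292. All of these share the same 10 arrays and carry 8 degrees of freedom within groups, so they are given as descriptions. The pairs with the highest values were Rpl23a with Rpl7a (0.937), Rpl23a with Rps16 (0.936) and Rpl26 with Rpl5 (0.936). The 12 dim members lay below their mean for 6, 9 and 9 genes in control replicate 3 and DMHF replicates 2 and 3, and their pairs had a median of 0.0310. Without control replicate 3 the median of the bright pairs was 0.285. Without control replicate 3 and DMHF replicates 2 and 3 together it was 0.0511. These 3 rats were chosen after the values were seen, as those where the bright members lay lowest, and that choice favours such a fall. No other 3 rats were left out together, so whether the shared order rests on these was not tested. With each array shifted to a common median, 2 of 38 bright members lay below their mean in control replicate 3, 12 in DMHF replicate 2 and 0 in DMHF replicate 3, since the offsets of up to 15.2 millionths exceed the spread of the bright members many times. Bright members with a tract at the start had a median r of 0.708 with the other bright members (16 genes) and those without it 0.504 (16 genes), with ranges of -0.226 to 0.904 and -0.096 to 0.889 that overlap.

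**Figure D5:**
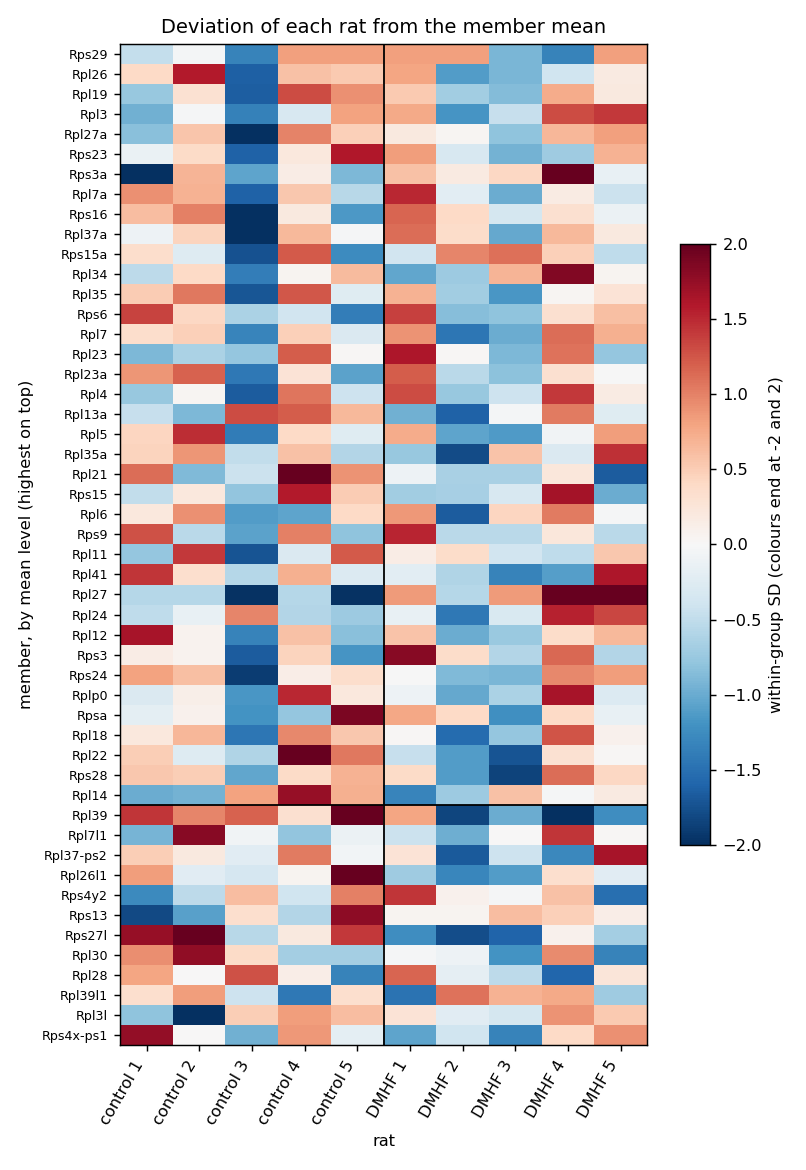
Deviation of each rat (columns) from the member mean for all 50 members (rows, highest level on top), in within-group SD from blue (low) to red (high). Above the horizontal line, at a level of 9.5, control replicate 3 is blue for all but Rpl13a, Rpl24 and Rpl14, and below the line it is blue for 6 of 12 members, DMHF replicates 2 and 3 for 9 of 12 each.

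The 33 bright probe sets annotated to several genes with a ribosomal symbol stood low in the same rats. They lay below their mean for 26 of 33 in control replicate 3, 26 of 33 in DMHF replicate 2 and 24 of 33 in DMHF replicate 3, with medians of -0.698, -0.938 and -0.579. They may read some of the same transcripts as the members. Mitochondrial ribosomal proteins, which serve the separate ribosome of that organelle, lay below for 54, 57 and 61 of 73 genes in those rats, in that order. Over all 14217 genes, 7732, 7209 and 7718 lay below their mean in the same rats. Among the 531 genes at 11 or above, 312, 296 and 281 did. Of 13 genes outside the rule whose transcripts are known to carry the pyrimidine tract, such as elongation factors, 10, 11 and 9 lay below. Of 5 measured oligodendrocyte markers, all 5 lay below in each of these rats, with medians of -0.711, -1.22 and -1.14, and 5, 5 and 4 of 6 astrocyte markers did. The other lists were mixed: 2, 5 and 2 of 7 neuron markers lay below, 5, 6 and 5 of 13 mTORC1 pathway genes, and 3, 5 and 5 of 7 Rps6 kinases. Ribosome biogenesis factors lay below for 16, 13 and 11 of 22. Endothelial markers lay below for 1, 5 and 6 of 6, microglia markers for 2, 4 and 3 of 6 and choroid plexus markers for 6, 1 and 5 of 6. Ependyma markers lay below for 4, 0 and 2 of 4 and pituitary markers for 3, 0 and 1 of 6. Bright members tended to lie above their mean in control replicates 2 and 4 and DMHF replicates 1 and 4. There 4, 0, 1 and 0 of 5 oligodendrocyte markers lay below, in that order, and 4, 2, 1 and 0 of 6 astrocyte markers. The part of cell makeup in the shared order was not tested. The array's control probe sets for Gapdh and beta-actin showed no shared direction in control replicate 3 and DMHF replicates 2 and 3. For the 5′ end of Gapdh they stood at 0.152, -0.078 and -0.088 millionths from their mean in control replicate 3, DMHF replicate 2 and DMHF replicate 3, and for the 3′ end of beta-actin at -0.177, -0.027 and 0.043. The array medians of control replicate 3, DMHF replicate 3 and DMHF replicate 2 lay 6.47, 7.58 and 8.57 millionths above the lowest. That lowest median was of control replicate 5, where the bright members were near the middle. The remaining rats lay 8.70 to 15.2 above it, and the part of these offsets in the shared order was not tested.

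The other genes of the pathway did not pass the test in any list (limma, 0 members called in each). Of 73 mitochondrial ribosomal proteins, 22 had higher means in DMHF and 51 lower, with a median of -0.363 within-group SD against 0.0477 over all genes. Their median deviation was 0.396, -0.690, -0.701, 0.00122 and 0.156 SD in DMHF replicates 1 to 5. In control replicates 1 to 5 it was 0.234, 0.717, -0.483, 0.307 and 0.0650. The DMHF group thus held both low and high rats, and this split was not run with arrays left out. Mrps15, of the small mitochondrial subunit, differed by -0.957 millionths (SE 0.314; limma adjusted p = 0.860) and Mrpl35, of the large one, by -0.891 (SE 0.423; adjusted p = 0.931). Of 7 Rps6 kinases, 1 was higher and 6 lower, with Rps6ka3 at -1.57 (SE 1.12) and Rps6ka4 at -0.945 (SE 0.931). Of the 13 tract-bearing genes outside the rule, 8 were higher and 5 lower, with Hnrnpa1, a splicing regulator, at -2.79 (SE 1.42) and Eif4b, an initiation factor, at 0.906 (SE 0.664). Ribosome biogenesis factors were split 11 to 11, led by Bysl, a factor of small-subunit assembly, at 0.555 (SE 0.345) and Polr1a, the largest subunit of RNA polymerase I, at 0.602 (SE 0.414). The mTORC1 pathway genes were split 6 higher to 7 lower, with Tsc2 and Tsc1, which together restrain mTORC1, at 1.20 (SE 0.658) and -5.06 (SE 3.005).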

How the data were processed

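RNA of 10 rats, 5 per group, was labelled with biotin and hybridised to Affymetrix arrays, 1 per rat, per the labels' protocols. The authors deposited processed values per probe set, read here as log2 by their range, with R 2.7.2 named by the submitters' processing notes. The log base, background correction, normalization, probe set summary and any batch are not given in these sources. Groups and replicate numbers follow the titles, in which each sample is a biological replicate.

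Without the 57 control probe sets, 31042 were tested: 20826 named for a single gene by the platform annotation, 436 for several, and 9780 unnamed here. DMHF and control were compared by limma 3.58.1 under R 4.3.3, with lmFit and eBayes, two-sided and without covariates, adjusted by Benjamini-Hochberg over all 31042 (threshold 0.05). The fit was also run on simulated data with independent normal noise for each probe set, unlike the correlated bright members, and its recovery there is not given here. In the fit to the rats, the prior had 0.841 degrees of freedom, and the moderated SE of bright members was 1.45 times their own SE in the median. The number of arrays limits the precision.

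Named members were set by rule: the 5 smallest p in each direction, the 3 highest and 3 lowest levels, the 3 largest and 3 smallest SDs, members whose groups do not overlap, and 28 genes by name (14 measured), which named 27. From each list of related genes the 2 with the smallest p were named. Rpl7, Rpl7a, Rpl14, Rpl18, Rpl23a, Rpl24, Rpl28, Rpl35, Rps16, Rps24 and Rps28 are named outside that rule, after their values were seen. The members, lists and rule were chosen with earlier results of these data known. The effect of other settings, among them quantile normalization, array weights and each array left out, closes the text.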

Additional observations from a re-analysis of the deposited data

How the results depend on the processing

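In limma, 0 members were called under every setting run, but quantile normalization left only 1 member that varied, and no bright one. Over all probe sets that setting gave 13 calls among 10076 that still varied, and its 1 member was higher in DMHF. Each array left out gave 0 to 1 calls over all probe sets, the 1 without DMHF replicate 2. With a common array median 16 members were higher in place of 27, the median pair correlation of bright members was 0.996, and 2, 12 and 0 of them lay below their mean in control replicate 3, DMHF replicate 2 and DMHF replicate 3. It turned the sign of Rpl11 (-0.0022 millionths), Rpl27 (-0.0302), Rpl7l1 (-0.019), Rps29 (-0.0442), Rps9 (-0.0442) and Rpsa (-0.0242), and array weights that of Rps29 (-0.00322) and Rps9 (-0.00571). Array weights left 21 members higher, with a median of -0.140 within-group SD. The shift moves all probe sets of an array alike; the cause of the other changes was not tested. Each array left out in turn moved the number of members with higher means between 18 (without control replicate 3 or DMHF replicate 4) and 29 and turned the sign of 12 of 27 named members, whose differences then ran, in millionths, from -0.249 to 0.293 for Rpl11, -0.0830 to 0.0495 for Rpl19, -0.290 to 0.745 for Rpl39l1, -0.0693 to 0.874 for Rpl3l, -0.429 to 0.0455 for Rpl5, -0.343 to 0.506 for Rpl7l1, -0.660 to 0.240 for Rplp0, -0.0055 to 0.010 for Rps29, -1.81 to 11.3 for Rps4y2, -0.0195 to 0.228 for Rps6, -0.0125 to 0.0145 for Rps9 and -0.0615 to 0.161 for Rpsa. With the replicate number as a replicate block, limma called 0 members and 0 probe sets, with 27 members higher. The smallest limma adjusted p over all probe sets was then 0.172, against 0.698 without the block. Same-numbered rats correlated at 0.0288 to 0.273 in their deviations, not every pair above 0.1, and differently numbered rats at -0.184 to 0.204. The highest values, 0.273 and 0.214, were those of replicates 3 and replicates 1. The labels do not state that numbers pair rats, so they were not taken as pairs. Whether same-numbered rats share a batch was not tested.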
